A study of Mus musculus with 31 samples.

Results

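The complement system is a cascade of plasma and tissue proteins that marks targets for immune cells. It was followed here through 10 genes (C1qa, C1qb, C1qc, C1ra, C1s1, C4b, C2, C3, Cfb and C5ar1), measured by the probes that carry one of these gene names in the array annotation. The genes were chosen with earlier results of these data known. Shares of all genes given beside their counts are therefore a description and not a test. The 10 genes have 16 of the 56605 probes on the array, and all 10 were among the 19797 genes tested. The study asked how food-grade titanium dioxide (E171), a white pigment, changes gene expression in the distal colon of a colorectal cancer model before tumours can be detected. RNA of the distal colon of 31 mice was hybridised to one-colour Agilent microarrays, with 1 array per mouse.

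All mice were BALB/c mice treated with azoxymethane (AOM), a carcinogen, and dextran sodium sulphate (DSS), which injures the colon lining, so the controls carried both treatments too. CRC mice received water by gavage, and CRC + E171 mice received 5 mg of E171 per kg of body weight per day by gavage. Colons were taken after 2, 7, 14 and 21 days of exposure, which gives 8 groups. Each held 4 arrays, from 2 males and 2 females, except CRC at 21 days with 3 arrays, from 1 male and 2 females. Chemically induced inflammation drives tumour formation in this model, and no group without AOM and DSS was measured. A level is given as the log2 of the scanner's processed signal relative to the 75th percentile of the array, so a level of 0 lies at that percentile. Levels of different probes are not comparable with each other.

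C1q, built from the chains of C1qa, C1qb and C1qc, recognises antibody complexes and dying cells and is made mainly by macrophages. It activates the proteases C1r and C1s, which cleave C4 and C2 into the enzyme that splits C3, while factor B (Cfb) serves the same purpose in the alternative pathway and amplifies C3 cleavage. C5ar1 is the receptor for C5a, a fragment released further down the cascade that attracts neutrophils and other myeloid cells.

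The probe sequences are shown for the genes on which the results turn. They are 60 bases long, come from the array files, and are written 5′ to 3′ in lower case with positions on the mm9 build. C5ar1 is measured by 1 probe on chromosome 7, minus strand, for which the annotation gives chr7:16832094-16832135. C1ra has 1 probe at chr6:124473052-124473111 on the plus strand, and C2 has 1 at chr17:34999575-34999634 on the minus strand. C3 has a probe at chr17:57343416-57343475 and C4b has one at chr17:34865367-34865426, both on the minus strand. C1s1 has 3 probes on the minus strand of chromosome 6, and they are shown together because they disagree. The first, at chr6:124480775-124480834, was designed on the RefSeq mRNA. The second (chr6:124487326-124487385) and the third (chr6:124486309-124486368) were designed on a predicted and on an Ensembl transcript.
C5ar1: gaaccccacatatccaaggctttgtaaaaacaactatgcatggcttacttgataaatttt
C1ra: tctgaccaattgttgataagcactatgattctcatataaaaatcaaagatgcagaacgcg
C2: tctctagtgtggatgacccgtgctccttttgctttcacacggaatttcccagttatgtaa
C3: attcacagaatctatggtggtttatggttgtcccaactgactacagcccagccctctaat
C4b: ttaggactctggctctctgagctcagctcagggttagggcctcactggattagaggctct
C1s1, mRNA probe: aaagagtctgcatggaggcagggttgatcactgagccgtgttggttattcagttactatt
C1s1, predicted transcript: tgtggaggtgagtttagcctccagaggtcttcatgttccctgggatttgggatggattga
C1s1, Ensembl transcript: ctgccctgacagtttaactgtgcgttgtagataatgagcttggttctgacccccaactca

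Each gene had a probe of a RefSeq mRNA that was well above background on all 31 arrays, and none of the members' spots was saturated. The paired probes of C3, C4b and Cfb moved together over the arrays, with r = 0.97, 0.96 and 0.97. A second C1qc probe was above background on 0 arrays and was left out (r = 0.31 with the first). The C1s1 probes did not move together. The probe of the predicted transcript was well above background on 12 arrays and correlated with the mRNA probe at r = 0.22, and the Ensembl probe, above background on 30 arrays, at r = 0.49. The average over these 3 probes, which is the gene value by the rule used for all genes, therefore follows signals unlike that of the mRNA. C1s1 is given below by its mRNA probe, a choice made after the data had been seen, with the averaged value beside it where the call differs.

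Some arrays stood apart in tissue composition. On the arrays of CRC 7 days male 1 and male 2 the colonocyte score, the median over 6 marker genes of the log2 deviation from each gene's mean over the arrays, was -6.93 and -4.43. On CRC + E171 14 days male 2 it was -3.55, and on the other 28 arrays it lay between -0.16 and 1.59. These 3 arrays also had the highest neutrophil scores (4.22, 4.04 and 2.63). Below, these are the 3 that stood apart. Markers of other tissues were also high on some arrays. The squamous epithelium score was 8.34 on CRC 7 days male 1 and 7.54 on CRC 21 days female 1. In CRC + E171 it was 7.40 on 14 days male 2 and 5.18 on 21 days female 1. The pancreatic acinar score was 7.75 on CRC 7 days male 2, 7.21 on CRC 7 days female 1 and 5.66 on CRC 2 days male 2. In CRC + E171 it was 9.67 on 21 days female 2 and 9.70 on 2 days female 2. Xist, which marks female cells, was high on an array labelled male (CRC, 14 days, male 2). Its log2 level there was -1.60, which lies within the range of the females (-2.34 to -0.70), where the other males were at -6.53 or lower. Sexes are given as labelled, and 14-day values are given without this array where a call or the size changed. In bulk RNA, fewer cells of a type and less RNA per cell cannot be told apart.

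**Figure D1:**
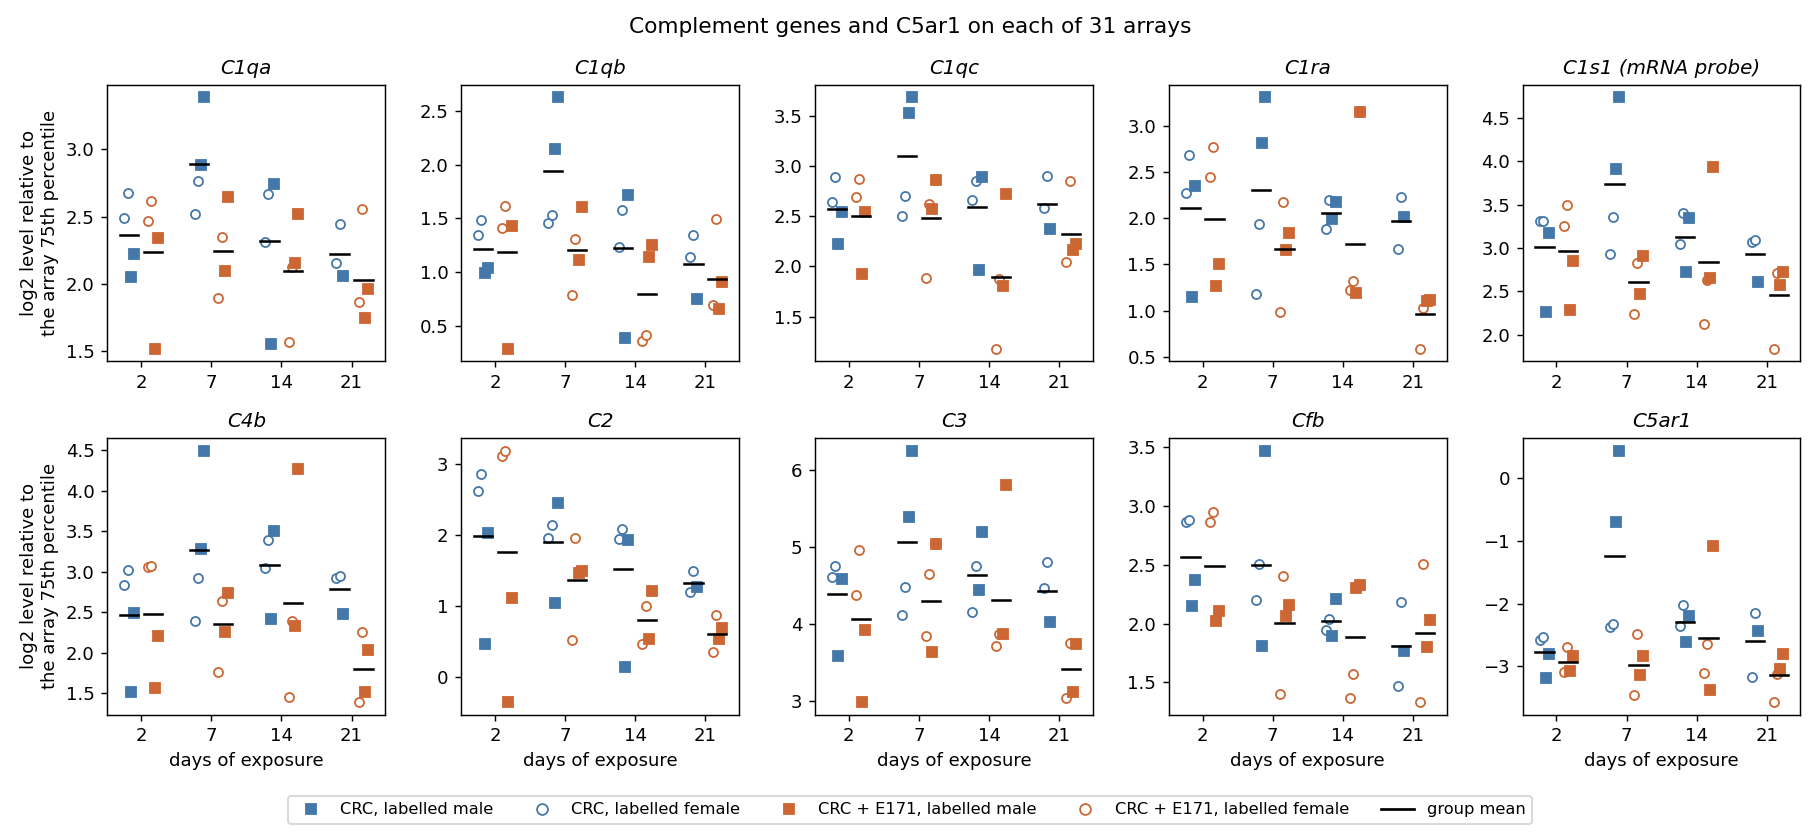
Log2 level of each gene (vertical axis, relative to the 75th percentile of the array) by days of exposure, with 1 point per array, squares for arrays labelled male, circles for females, blue for CRC, orange for CRC + E171 and a black line for the group mean. The male 2 array of CRC 7 days is the highest point in every panel but that of C2, and at 21 days the orange points of C1ra, C4b, C2 and C3 all lie below the blue ones.

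After 7 days of exposure all 10 genes were lower on average in CRC + E171 than in CRC, as were 50.8% of all genes tested. The median log2 fold change was -0.64 (-0.69 with the mRNA probe of C1s1), against -0.01 over all genes. By the study's threshold, a fold change of 1.5 with an unadjusted p under 0.05, 3 genes were down-regulated (C1qa, C1qb and C5ar1) and none was up-regulated, where 5.48% of all genes passed in that direction and 6.93% in the other. C1s1 passed by its mRNA probe, and not by the average of its probes. After Benjamini-Hochberg adjustment in limma 0% of all genes passed at 7 days, and the smallest adjusted p of a member was 0.197.

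C5ar1 showed the largest difference of the 10. Its level at 7 days was -0.70 and 0.44 in the CRC males, -2.37 and -2.32 in the CRC females, -3.13 and -2.83 in the CRC + E171 males and -2.49 and -3.46 in the CRC + E171 females. The arrays of the groups did not overlap, as in 2.03% of all genes in this direction, and both CRC males stood far above every other array of that day. Means were -1.24 ± 1.36 (SD, n = 4) in CRC and -2.98 ± 0.42 (SD, n = 4) in CRC + E171. The log2 fold change was -1.74 (SE 0.47, limma adjusted p = 0.197), or 3.35-fold lower. The exact two-sided permutation p was 0.0286, the smallest that 4 arrays against 4 allow. Without 1 of the CRC females, which leaves both males, the log2 fold change was -2.12 (female 1 left out, limma adjusted p = 0.0252) or -2.10 (female 2, limma adjusted p = 0.0436). With array weights it was -0.71 (limma adjusted p = 0.545).

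C1qa had levels of 2.88, 3.38, 2.52 and 2.77 in CRC at 7 days (males first) and of 2.10, 2.65, 2.35 and 1.90 in CRC + E171. The E171 arrays lay below the CRC mean of 2.89, with 1 male overlapping the CRC females. The log2 fold change was -0.64 (SE 0.27, limma adjusted p = 0.249). C1qb followed the same arrays, from 2.15, 2.62, 1.46 and 1.53 in CRC to 1.11, 1.61, 1.31 and 0.79 in CRC + E171, a log2 fold change of -0.73 (SE 0.32, limma adjusted p = 0.256). C1qc, the third chain, had a log2 fold change of -0.62 (unadjusted p = 0.0575, limma adjusted p = 0.313) and did not pass. The exact permutation p of these 3 genes was 0.0571, 0.0857 and 0.2. The call of C1qa was lost without CRC male 2 (-0.47), CRC + E171 male 1 (-0.59) or CRC + E171 female 2 (-0.52). That of C1qb was lost without these (-0.51, -0.70 and -0.60) and without CRC male 1 (-0.67). Both were lost with scan day as a block (-0.46 for C1qa and -0.50 for C1qb) and with array weights (-0.42 and -0.32).

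C1s1 encodes the protease that cleaves C4 and C2. The level of its mRNA probe at 7 days was 3.91, 4.74, 2.93 and 3.36 in CRC and 2.47, 2.91, 2.83 and 2.24 in CRC + E171, again with males first. The groups did not overlap, although the lowest CRC female and the highest E171 male differed by less than the SD within either group. The log2 fold change was -1.13 (SE 0.37, unadjusted p = 0.00511, limma adjusted p = 0.197), against -0.62 (unadjusted p = 0.133, limma adjusted p = 0.437) for the average of the 3 probes.

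The remaining members did not pass at 7 days. Their log2 fold changes were -0.92 for C4b, -0.77 for C3, -0.65 for C1ra, -0.54 for C2 and -0.49 for Cfb, with standard errors of 0.32 to 0.60. For each of C4b, C3, C1ra and Cfb all 4 E171 arrays lay below the CRC mean, and the arrays of the groups overlapped. Without CRC female 1, C4b (-1.22), C3 (-1.08), C1ra (-1.02) and C1qc (-0.82) passed as well. That array was the lowest CRC array for each of them, so leaving it out widens their differences. Cfb passed without CRC male 1 (-0.72), its own lowest CRC array.

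The 7-day calls were lost when the 2 CRC males were left out, which leaves 2 CRC arrays on that day. Then 0 of the 10 genes passed (by the mRNA probe for C1s1). Of all genes 1.25% were called lower, against 5.48% with all arrays. Leaving out other pairs of arrays was not tried. The log2 fold change of C5ar1 was then -0.64 (SE 0.41, unadjusted p = 0.138 from limma), that of C1s1 -0.54, of C1qa -0.40, of C1qb -0.29 and of C1qc -0.12. C3 was at -0.01 and C1ra at 0.10, so that 9 of the 10 genes were still lower, with a median of -0.33. In the E171 groups of 7 days the colonocyte score lay between 0.22 and 0.61 and the neutrophil score between -1.89 and 1.74. The summed linear signal of the neutrophil markers, relative to the 75th percentile, was 56.1 to 342.2 in CRC and 52.3 to 74.2 in CRC + E171. Of the 8 neutrophil markers 7 were tested, and Cxcr2 was well above background on 14 arrays. The part of tissue composition in the 7-day differences was not tested.

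**Figure D2:**
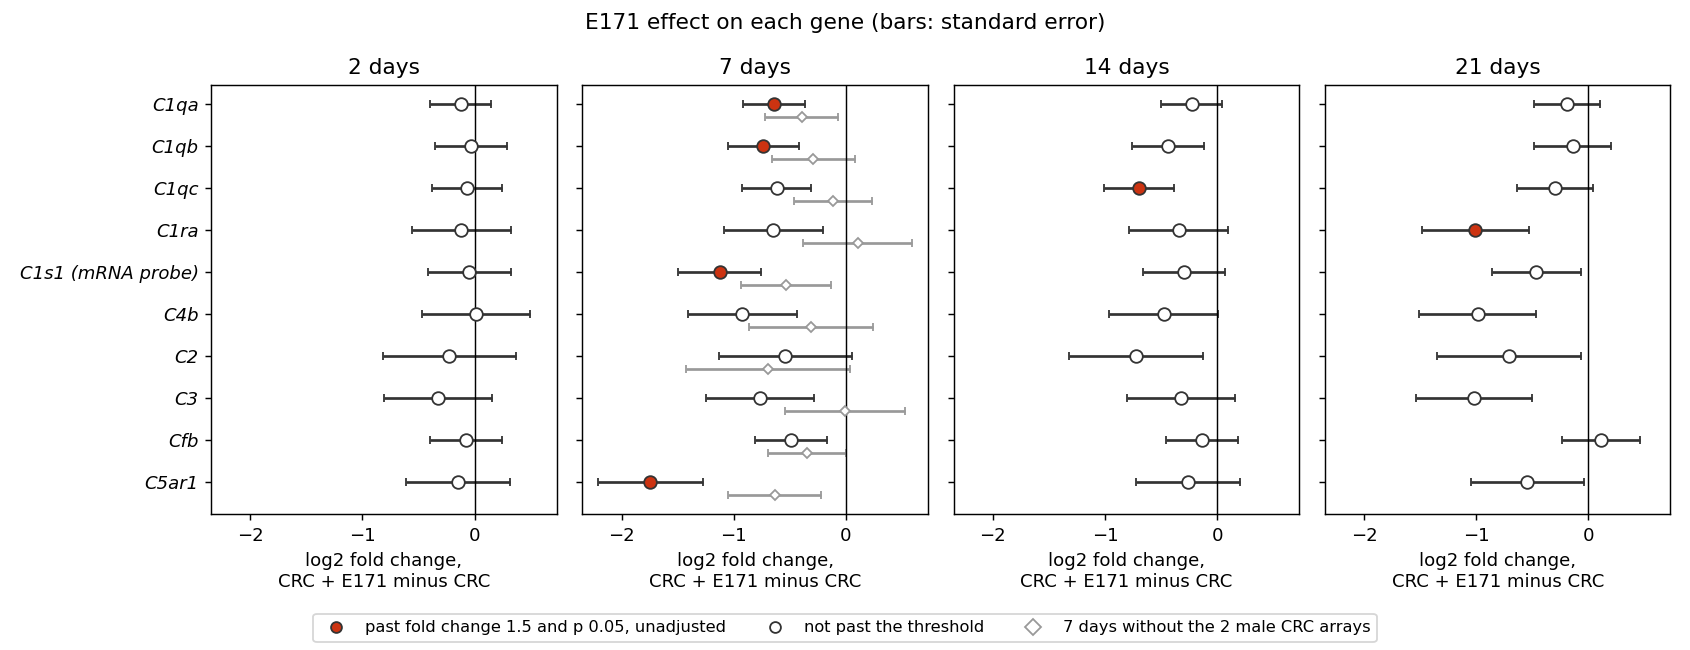
Log2 fold change of CRC + E171 against CRC (horizontal axis) for each gene at each of the 4 time points, with the standard error as a bar; red points passed a fold change of 1.5 and an unadjusted p under 0.05, and none passed after adjustment. Grey diamonds at 7 days leave out the 2 male CRC arrays and lie closer to 0 for 9 of the 10 genes.

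After 2 days of exposure none of the 10 genes passed, where 0.172% of all genes were called lower and 1.55% higher with E171, and 0% passed after adjustment (limma). On average 9 of the 10 were lower with C1s1 by its mRNA probe, and 8 with the averaged C1s1, as were 40.8% of all genes. The log2 fold changes lay between -0.32 for C3 and 0.01 for C4b, with C1s1 at -0.05 by its mRNA probe and 0.59 by the average. C2, a protease subunit of the classical pathway, varied most among the arrays of that day. Its level was 0.46, 2.02, 2.62 and 2.85 in CRC and 1.11, -0.36, 3.12 and 3.18 in CRC + E171, males first. The females of both groups lay above the males, and E171 male 2 was the lowest of all 31 arrays.

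After 14 days of exposure all 10 genes were lower on average, as were 48.5% of all genes. The median log2 fold change was -0.39 (-0.33 with the mRNA probe of C1s1), against 0.01 over all genes. C1qc and the averaged C1s1 passed, 2 of 10 genes, or 1 of 10 with the mRNA probe of C1s1. Of all genes 3.1% were called lower and 0% passed after adjustment. C1qc had levels of 2.89, 1.97, 2.85 and 2.66 in CRC and 1.81, 2.73, 1.18 and 1.88 in CRC + E171, males first. Male 2 of each group broke the pattern, low in CRC and high in CRC + E171. The log2 fold change was -0.70 (SE 0.31, limma adjusted p = 0.590), and -0.90 (adjusted p = 0.705) without the array whose Xist level did not match its label. Without that array C1qb also passed (-0.72, limma adjusted p = 0.705), C2 moved from -0.72 to -1.18 (limma adjusted p = 0.714) and C1qa from -0.23 to -0.48 (limma adjusted p = 0.731). The call of C1qc was lost without any 1 of the other CRC arrays and of the E171 arrays other than male 2, with log2 fold changes from -0.97 to -0.46 over the 8 omissions. The call of C1s1 came from the probes of the other transcripts, since the mRNA probe gave -0.30 (SE 0.37, limma adjusted p = 0.888). C1ra, C3 and C4b each had 1 high E171 array, male 2, which held 3.15, 5.80 and 4.26, while the other E171 arrays reached 1.32, 3.87 and 2.39. This was the array with a colonocyte score of -3.55. Without it C4b passed at -1.03 (unadjusted p = 0.0286).

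After 21 days of exposure 9 of the 10 genes were lower on average with C1s1 by its mRNA probe (-0.46, SE 0.40), and 8 with the averaged C1s1 (0.08), as were 48% of all genes. The largest differences were those of C3, C1ra, C4b and C2. The median log2 fold change was -0.42 (-0.50 with the mRNA probe of C1s1), against 0.02 over all genes. C1ra, the protease that C1q activates, was down-regulated. It was the one of the 10 genes that passed, where 1.82% of all genes were called lower and 0% passed after adjustment. Its level was 2.01, 2.23 and 1.67 in CRC and 1.11, 1.12, 1.03 and 0.59 in CRC + E171. Every E171 array lay below every CRC array. The mean was 1.97 ± 0.28 (SD, n = 3) in CRC and 0.96 ± 0.25 (SD, n = 4) in CRC + E171, which is 2.01-fold lower (log2 fold change -1.01, SE 0.48, limma adjusted p = 0.855). The call was lost without any 1 of the arrays other than CRC female 2, with log2 fold changes from -1.16 to -0.88 over the 7 omissions.

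C3, on which all pathways converge, had levels of 4.02, 4.47 and 4.80 in CRC at 21 days and of 3.12, 3.74, 3.75 and 3.03 in CRC + E171. C4b had 2.48, 2.93 and 2.95 against 1.51, 2.04, 2.25 and 1.39, and C2 had 1.26, 1.19 and 1.5 against 0.53, 0.68, 0.87 and 0.35. In these 3 genes, as in C1ra, the highest E171 array lay below the lowest CRC array, so that 4 of the 10 genes did not overlap, against 3.35% of all genes that were lower without overlap. The log2 fold changes were -1.02 for C3 (unadjusted p = 0.0602, limma adjusted p = 0.870), -0.99 for C4b (unadjusted p = 0.0703, limma adjusted p = 0.876) and -0.71 for C2 (unadjusted p = 0.280, limma adjusted p = 0.932). The exact permutation p was 0.0286 for C1ra, C3 and C2 and 0.0571 for C4b, where 4 arrays against 3 allow no p below 0.0286. When only the 7 arrays of that day were fitted, these 4 genes passed the threshold, as did 796 of all genes in either direction. Without the 2 CRC males of 7 days, which enter the shared estimate of the spread, C1ra and C3 passed, where 2.54% of all genes were called lower. The same 2 genes passed with the replicate number within sex as a block, at -1.11 for C1ra (limma adjusted p = 0.597) and -1.15 for C3 (limma adjusted p = 0.604), and with scan day as a block C1ra, C3 and C4b passed. The labels do not describe the replicate number as a pairing of mice. The share of all genes called is not given for these blocks.

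The C1q chains at 21 days had log2 fold changes of -0.19, -0.14 and -0.30 for C1qa, C1qb and C1qc, with overlapping arrays. Cfb had 0.11 (SE 0.35), and C5ar1 had -0.55 (SE 0.50), with adjusted p-values from limma between 0.932 and 0.980 for these 5 genes. The colonocyte score of the 21-day arrays was 0.20 to 0.75 in CRC and 0.81 to 1.03 in CRC + E171, and the macrophage score was -0.27 to 0.03 and -0.45 to -0.19. Squamous or acinar scores were high on CRC female 1 and on both CRC + E171 females. The part of these scores in the 21-day differences was not tested.

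Each slide held CRC arrays of one day and CRC + E171 arrays of another, so slide and treatment cannot be told apart on a single day, and were separated over pairs of days. Over 7 and 21 days together, compared within slides, 5 genes were down-regulated, against 1.65% of all genes. They were C5ar1 with a log2 fold change of -1.10 (SE 0.39), C4b with -0.95 (SE 0.30), C3 with -0.93 (SE 0.34), C1ra with -0.78 (SE 0.29) and C2 with -0.60 (SE 0.24). All 5 had an adjusted p of 0.747 from limma. C1s1 passed as well by its mRNA probe (-0.80, SE 0.28). C1qa had an unadjusted p of 0.0251 from limma at a log2 fold change of -0.43, below the fold threshold. The count was 3 without CRC + E171 7 days male 1 and 2 without CRC 21 days female 2. Without the CRC males of 7 days 2 of the genes passed (C2 at -0.68 and C4b at -0.65), where 0.904% of all genes were called lower. Over 2 and 14 days within slides none of the 10 genes passed (background 0.869% lower), and C2 had the largest value, -0.47 (SE 0.54).

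Whether the effect of E171 differed between days was tested with an F test in limma. None of the 10 genes had an unadjusted p under 0.05, where 6.52% of all genes did, and the smallest p was 0.0613 for the averaged C1s1. The smallest after it was 0.0846 for C5ar1. A decrease of C1ra at 21 days and of C5ar1 at 7 days is not shown to be particular to those days.

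Within the CRC groups C5ar1 was the one of the 10 genes that differed between days (F test, unadjusted p = 0.0147, limma adjusted p = 0.492). This count is near the share of all genes, 9.89%. Its level rose by 1.54 (log2) from 2 to 7 days (background 7.21% higher), and it fell by 1.06 from 7 to 14 days and by 1.35 from 7 to 21 days. The CRC males held the high values of day 7. C1qb, C1qa and Cfb did not pass the F test, and their values here are of single pairs of days. C1qb rose by 0.73 (log2) from 2 to 7 days and fell by 0.71 to 14 days (background 3.17% lower) and by 0.86 to 21 days (background 3.93% lower), and C1qa fell by 0.67 from 7 to 21 days. Cfb, the alternative pathway protease, fell by 0.76 (log2) from 2 to 21 days (background 1.48%, limma adjusted p = 0.901). Without the CRC males of 7 days, or without male 2 alone, none of the 10 genes had an F test p under 0.05. Within CRC + E171 the averaged C1s1 was the one gene that differed between days (unadjusted p = 0.0454, limma adjusted p = 0.332, background 14.6%), which its mRNA probe did not (unadjusted p = 0.529). The averaged C1s1 fell by 1.19 (log2) from 2 to 14 days (background 6.94% lower). C1ra, which did not pass the F test, fell by 1.04 from 2 to 21 days (background 5.3%, limma adjusted p = 0.313).

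Between the labelled sexes 1 gene passed, C2, with a background of 1.82% called lower in males. Its level in the 15 male arrays ran from -0.36 over a median of 1.11 to 2.45, and in the 16 female arrays from 0.35 over 1.94 to 3.18. The ranges overlapped widely. Adjusted for group, males were lower by 0.68 on the log2 scale (SE 0.28, unadjusted p = 0.0215, limma adjusted p = 0.478), and by 0.59 (unadjusted p = 0.0427) without the array whose Xist level did not match its label. The call was lost without CRC 2 days male 1, CRC + E171 2 days male 2 or CRC + E171 2 days female 2. A difference of the E171 effect between sexes was called for none of the 10 genes over the 4 days together (background 9.13%).

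Over the 31 arrays the 10 genes all correlated positively with each other, without separate groups being tested for. C1qa, for example, was at 0.76 with both C1s1 (mRNA probe) and C4b. The levels of C1qa and C1qb correlated at r = 0.94, and those of C1qb and C1qc at 0.89. C1s1 (mRNA probe) with C4b gave 0.93, C3 with C4b 0.92, C1s1 with C3 0.90 and C1ra with C1s1 0.86. C2 and Cfb, which are neighbours on chromosome 17 and close to C4b, correlated with each other at 0.72, and C2 with C5ar1 gave the lowest value, 0.22. These correlations describe arrays that share groups, slides and composition. Without the 3 arrays that stood apart, C1qa with C1qb was at 0.92, C1s1 with C4b at 0.91 and C3 with C4b at 0.88, and C5ar1 with C1s1 moved from 0.82 to 0.56. C2 was then at 0.75 with Cfb, and higher with C1s1 (0.83), C4b (0.79), C1ra (0.77) and C1qa (0.77). It was lower with C3 (0.72), C1qb (0.71), C1qc (0.62) and C5ar1 (0.39).

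**Figure D3:**
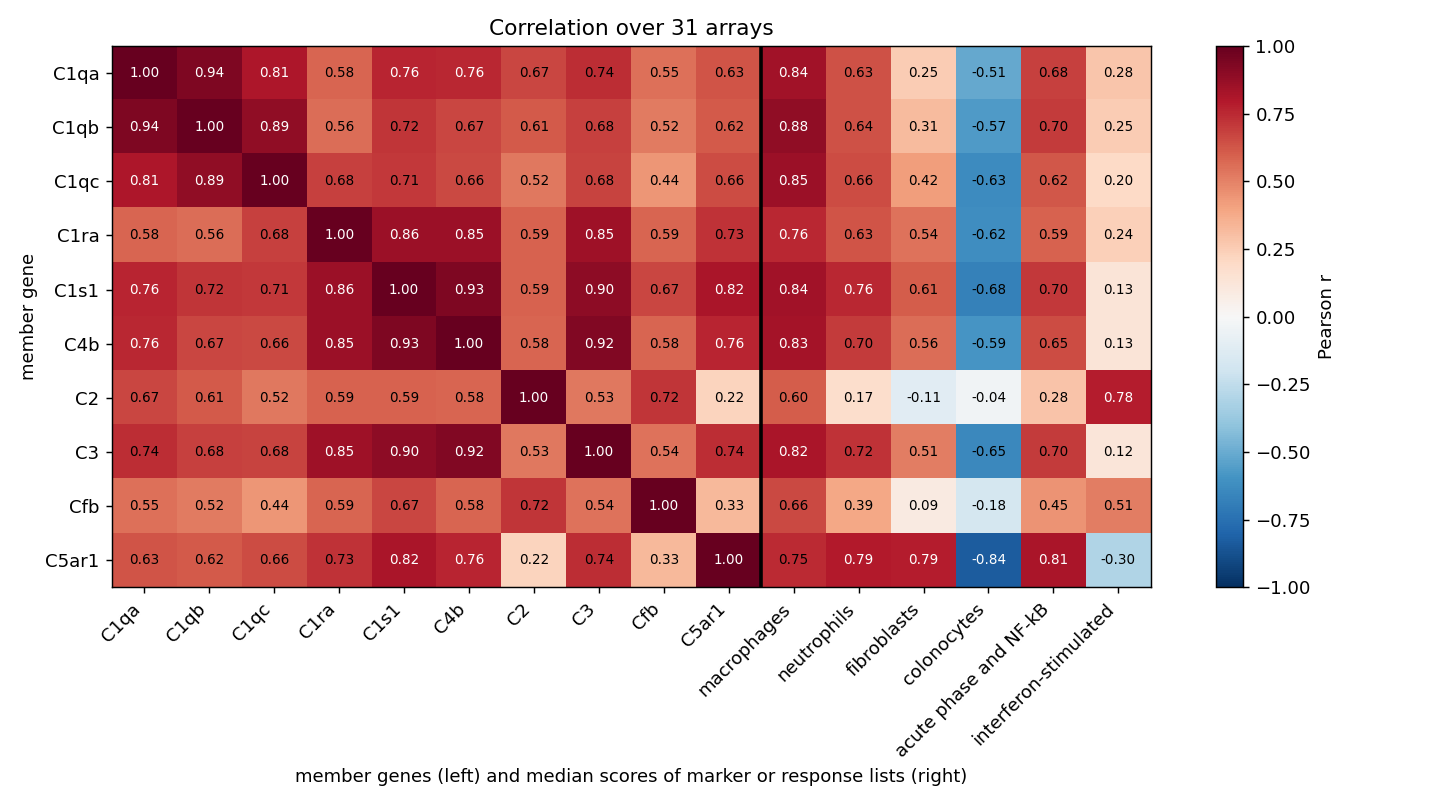
Pearson correlation over 31 arrays between the 10 genes (left of the line) and between each gene and the median scores of marker or response lists (right of the line), in red for positive and blue for negative values. The C1q chains go with the macrophage score (0.84 to 0.88), and so do C1s1 (0.84), C4b (0.83) and C3 (0.82). C2 goes with the interferon-stimulated score (0.78), and C5ar1 against the colonocyte score (-0.84).

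The genes outside the 10 whose levels were most like each member differed between the members. C1qb was closest to Tyrobp (r = 0.92), Fcgr4 (0.89) and Fcer1g (0.88), which encode an adaptor and Fc receptor subunits of myeloid cells, and C1qa was closest to Cd300c2 (0.91), Tyrobp (0.91) and Crlf2 (0.90). For C1qc they were Fxyd5 (0.91), Sirpb1b (0.86) and Cfp (0.86), the last encoding properdin, which stabilises the alternative pathway enzyme. C1ra was closest to C1s2 (0.91), Il18rap (0.89) and C1rb (0.88), and C1s1 by its mRNA probe to C1s2 (0.97), Tnfaip2 (0.92) and Stx11 (0.90). C4b was closest to C4a (0.95), C1s2 (0.93) and Pla2g7 (0.90), and C3 to Stx11 (0.93), Ppp1r18 (0.92) and Cpxm1 (0.92). C1rb, C1s2 and C4a are near-identical copies of members, and how far a probe also binds the transcripts of a copy cannot be read from the signals.

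C2 was closest to Nlrc5 (0.90), a regulator of MHC class I genes, Ifng (0.89), the gene of interferon gamma, and Calhm6 (0.88). With the score of 12 interferon-stimulated genes it correlated at r = 0.78 over 31 arrays, at 0.87 within groups, and at 0.89 without the 3 arrays that stood apart. Cfb was closest to Ms4a6b (0.79), Ctsc (0.79) and Vav1 (0.79) and reached 0.51 with the interferon-stimulated score, and 0.74 without the 3 arrays. Without them C1qa, C1qb, C1ra and C1s1 had 0.64, 0.67, 0.66 and 0.64 with that score, against 0.28, 0.25, 0.24 and 0.13 with them. C5ar1 was closest to Kirrel (0.93), Ier5l (0.93) and Lysmd2 (0.91). It correlated with the neutrophil score at 0.79, with the score of acute phase and NF-kB response genes at 0.81 and with the colonocyte score at -0.84, and without the 3 arrays at 0.30, 0.23 and -0.39. With the fibroblast and macrophage scores C5ar1 had 0.79 and 0.75, and 0.49 and 0.46 without the 3 arrays. The C1q chains kept values of 0.77 to 0.85 with the macrophage score without those arrays, at 0.84 to 0.88 with them. This was not particular to them. C4b had 0.79 without those arrays and 0.83 with them, C3 had 0.74 and 0.82, and C1s1 had 0.72 and 0.84. C2 had 0.75 without those arrays and 0.60 with them, C1ra had 0.68 and 0.76, and Cfb had 0.59 and 0.66.

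**Figure D4:**
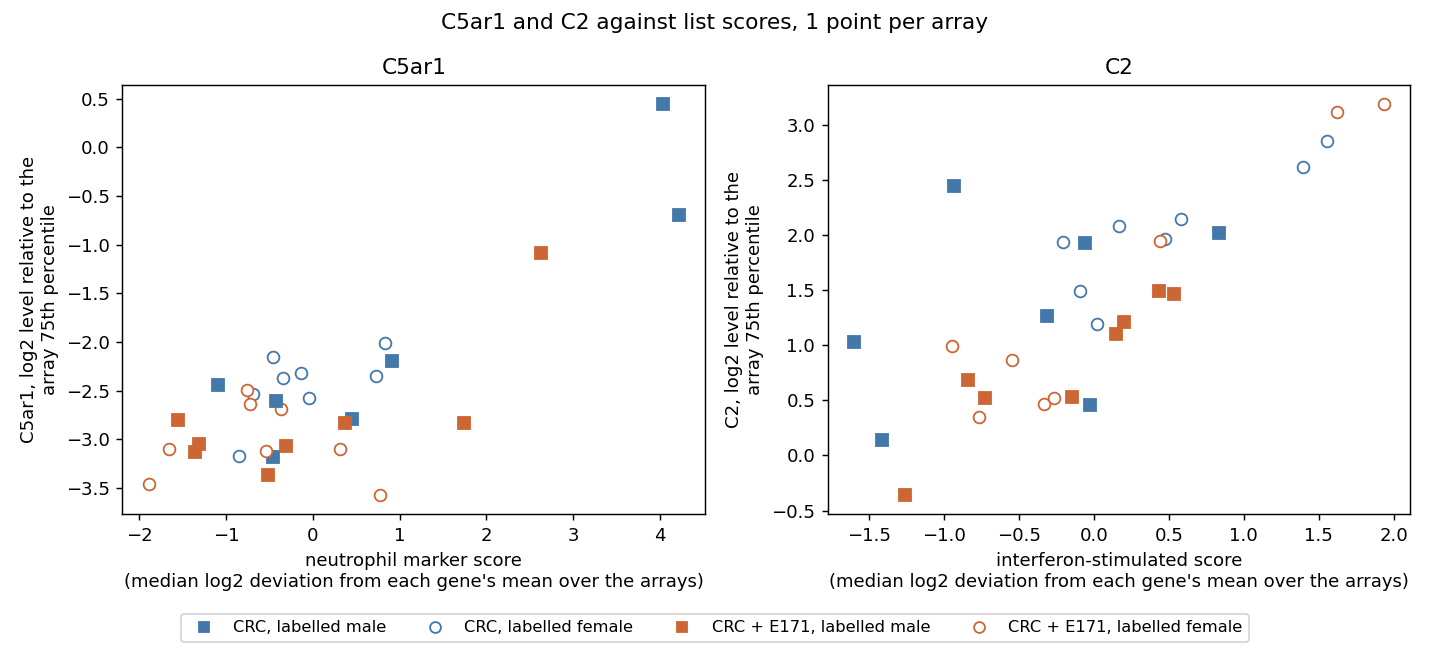
Left, the log2 level of C5ar1 against the neutrophil marker score, and right, that of C2 against the interferon-stimulated score, with 1 point per array, squares for males, circles for females, blue for CRC and orange for CRC + E171. The high end of C5ar1 is 3 male arrays with scores of 4.22, 4.04 and 2.63. The points of C2 rise with the score in its upper part and scatter in its lower part. There CRC 7 days male 1, with the lowest score (-1.60), had a C2 level of 1.03, and CRC 7 days male 2 (-0.94) had 2.45.

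Of 46 other complement genes listed, 41 were tested. After 7 days 6 were down-regulated and 3 up-regulated, with a median log2 fold change of -0.27 and 25 of 41 lower, where 5.48% and 6.93% of all genes passed in these directions. Among the lower ones were Masp1 (-1.21), a protease of the lectin pathway, Serping1 (-0.92), the inhibitor of C1r and C1s, C1s2 (-0.97), Cfp (-0.97) and Cd93 (-0.86). C4bp (1.57), a C4b-binding inhibitor, Colec10 (1.46), a lectin, and Cpn2 (1.43), a subunit of the enzyme that inactivates C5a, were higher. Without the CRC males of 7 days none of the 41 passed. After 2 days 1 of 41 passed (Mbl2, -2.23), where 0.172% of all genes were called lower. After 14 days 4 of 41 were down-regulated, against 3.1% of all genes, and all 4 are listed as regulators: C4bp (-2.14), Clu (-1.46), Cd55b (-1.29) and Cd55 (-1.22). After 21 days C4a (-1.52), Csmd1 (-1.44) and C1rb (-0.88) were down-regulated, 3 of 41, against 1.82% of all genes, and none was up-regulated at 14 or 21 days. No gene of this list passed after adjustment in limma.

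Promoters are shown for 3 members whose levels moved with partners among the 10. RefSeq's table for the GRCm38.p6 build holds a promoter for 6 of the 10 genes, from 250 bases before to 50 after the start. The searched motifs, on both strands, were TGANTCA (AP-1), GAGGAA (PU.1, a myeloid factor), TTCNNNGAA (STAT), TTNNGNAAT (C/EBP), the NF-kB motif and the interferon response motif, chosen with the values known. They occur in 7.81%, 28.3%, 8.3%, 11.5%, 0.411% and 3.44% of 32851 promoters of that length. Capitals mark matches. C1qb (chr4:136886151-136886450, minus strand) and C1qc (chr4:136892865-136893164, minus strand) each hold 1 GAGGAA match, at -30 and -193 from the start, and C3 (chr17:57228087-57228386, minus strand) holds 1 TTNNGNAAT match at -45. C1ra holds matches to 3 of the motifs, C1s1 to TTNNGNAAT, and C5ar1 to none of the 6. A match is a run of letters and not evidence of binding.
C1qb: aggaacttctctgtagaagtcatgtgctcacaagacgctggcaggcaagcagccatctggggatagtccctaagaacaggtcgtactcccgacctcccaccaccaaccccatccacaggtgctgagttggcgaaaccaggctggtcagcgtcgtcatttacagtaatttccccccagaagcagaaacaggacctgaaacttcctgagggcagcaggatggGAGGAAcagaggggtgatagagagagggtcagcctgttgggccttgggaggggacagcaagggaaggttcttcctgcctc
C1qc: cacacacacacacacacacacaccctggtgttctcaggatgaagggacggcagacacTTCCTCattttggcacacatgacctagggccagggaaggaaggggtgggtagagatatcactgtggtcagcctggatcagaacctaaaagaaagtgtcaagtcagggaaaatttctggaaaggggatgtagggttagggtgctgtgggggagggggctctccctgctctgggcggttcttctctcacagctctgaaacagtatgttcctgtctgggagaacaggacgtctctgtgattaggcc
C3: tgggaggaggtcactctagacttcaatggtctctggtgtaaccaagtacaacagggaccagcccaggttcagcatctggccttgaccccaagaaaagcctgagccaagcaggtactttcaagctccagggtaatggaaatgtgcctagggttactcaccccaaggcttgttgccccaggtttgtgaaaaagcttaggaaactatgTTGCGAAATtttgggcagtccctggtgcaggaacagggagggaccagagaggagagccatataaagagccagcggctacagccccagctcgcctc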

How the data were processed

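RNA of 31 mice was hybridised to 31 one-colour Agilent arrays. The authors scanned them and extracted spots with Agilent Feature Extraction 10.7.3.1, and the deposited intensity is the background-subtracted processed signal, not normalized between arrays. The deposited log2 matrix was used as an alternative only. It was normalized by the authors in a way not given in the sources used here, and its column medians were 9.43 to 9.67. Across arrays 67.4 to 78.9% of spots were well above background, and precision is limited by how few arrays a group has.

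Signals were taken as log2 minus the log2 of each array's own 75th percentile, leaving out spots flagged as outliers. Probes entered when 1 group or more had 60% of its arrays well above background and a group mean of the log2 signal of at least 4 (42787 of 56605 probes). Of these, 34344 matched a gene of RefSeq's table by accession, symbol or synonym, and probes of a gene were averaged. Members were matched by gene name. One limma 3.58.1 model (R 4.3.3) over the 8 groups, in which all groups share one estimate of the spread, gave the E171 effects, and further models gave the within-slide, day and sex comparisons. Exact permutation tests were two-sided. Named are all members, other complement genes past the threshold in an E171 comparison, and the 3 non-members most correlated with each member. One gene that this rule names is not reported here. Nearest genes of the averaged C1s1 are replaced by those of its mRNA probe. p-values measure the spread between mice of a group. The members and lists were chosen with earlier results of these data known. The limma step was checked on simulated data for the 7-day comparison over 19741 genes, where 76% of genes changed by 1 log2 unit and 95% of those changed by 2 were called with the right direction. After adjustment 39% and 77% passed. The simulated noise was independent between arrays with 1 SD per gene in all groups, so it holds no arrays that stand apart as those of the CRC males do.

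The alternatives were quantile normalization, normexp with an offset of 50, no filter, the authors' values, the highest probe, only the arrays compared, sex, a replicate block, slide and scan day as blocks, array weights, no slide term and leaving out each array. The mRNA probes alone and leaving out the CRC males of 7 days were chosen after seeing the data.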

Additional observations from a re-analysis of the deposited data

Results flagged for a closer look

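Single arrays stood far from the rest of their group of 4 for 6 of 70 combinations of gene and group tested, where chance gives about 1 in 20. C1ra and C3 were high on CRC + E171 14 days male 2, at 3.15 against 1.19 to 1.32 and at 5.80 against 3.71 to 3.87. C2 was low on the array labelled male 2 of CRC 14 days, at 0.14 against 1.92 to 2.08. C1qb was low on CRC + E171 2 days male 2, at 0.29 against 1.41 to 1.61. C3 was low on CRC 2 days male 1, at 3.58 against 4.58 to 4.75, and C1ra was low on CRC + E171 21 days female 2, at 0.59 against 1.03 to 1.12.

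The effect of E171 on C5ar1 at 7 days was more negative in males than in females by 2.22 on the log2 scale (a difference of -2.22, unadjusted p = 0.0103, adjusted p = 0.122 from limma), where 18.2% of all genes had an unadjusted p under 0.05. C5ar1 was the one member with such a p on that day. Each sex held 2 arrays per group. The CRC males of that day had colonocyte scores of -6.93 and -4.43, and the part of tissue composition in this difference was not tested. For Cfb at 14 days the E171 males lay above the CRC males and the E171 females below the CRC females. That difference was 0.78 (unadjusted p = 0.220, adjusted p = 0.834 from limma). One of these CRC males is the array whose Xist level did not match its label, and without it the difference was 0.63 (unadjusted p = 0.387 from limma).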

How the results depend on the processing

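Counts are of the 10 genes called, by the same thresholds as in the report, and the share of all genes called under an alternative is not given beside them. The call counts were 0, 3, 2 and 1 at 2, 7, 14 and 21 days, 5 and 0 within slides (7 and 21 days, 2 and 14 days), 1 each for the days within CRC, the days within CRC + E171 and the sexes, and 0 for the difference of the effect between days and between sexes. Quantile normalization and sex as a covariate gave 0 for the days within CRC + E171. Normexp and the authors' values each gave 1 at 14 days, 2 for the days within CRC and 0 within CRC + E171, and no filter gave 1 at 14 days. The highest probe gave 5 at 7 days, 1 at 14 days, 2 at 21 days and 0 for the days within CRC + E171. Fitting the arrays compared alone gave 1 at 14 days and 4 at 21 days. The replicate block of sex and replicate number gave 2 at 21 days and 1 for the effect between days, and moved no other count by over 1.5 times. The deviations of same-numbered arrays of the same sex correlated above 0.1 in all 3 pairs at 21 days (0.21 to 0.48). They did so in 3 of 4 pairs at 2 days, 2 of 4 at 7 days and 0 of 4 at 14 days. The labels give a replicate number and no pairing of mice, and arrays of different replicate number lay on different slides. Whether same-numbered arrays are pairs is therefore not known. Scan day gave 1 at 7 days and 3 at 21 days. Array weights gave 1, 4 and 3 at 7, 14 and 21 days, 2 and 3 within slides, 2 for the days within CRC + E171, 2 for the effect between days and 1 for the effect between sexes. The mRNA probes alone gave 1 at 14 days and 0 for the days within CRC + E171. Without the CRC males of 7 days the counts were 0 at 7 days, 2 at 21 days, 2 within slides over 7 and 21 days and 0 for the days within CRC. The cause of these changes was not tested, except that the last and the mRNA alternatives remove arrays or probes.

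Over omissions of single arrays the counts ran from 0 to 1 at 2 days, 1 to 7 at 7 days, 0 to 3 at 14 days, 0 to 1 at 21 days, 2 to 5 and 0 to 0 within slides, 0 to 2 for the days within CRC, within CRC + E171 and for the effect between days, 0 to 1 for the sexes and 0 to 3 for the effect between sexes. At 7 days it was 7 without CRC female 1, and 1 without CRC male 2, CRC + E171 male 1 or CRC + E171 female 2. The share of all genes called is not given for these omissions.

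Log2 fold changes that turned sign were uncalled. At 2 days C4b was at -0.035 (quantile), -0.016 (authors' values) and -0.15 (array weights), C1qb at 0.0091 (authors' values) and 0.069 (scan day, array weights), C2 at 0.00056 (scan day), C1qc at 0.51 (no filter) and C1s1 at -0.046 (highest probe, mRNA probes). C1s1 at 21 days was at -0.37 (authors' values), -0.46 (highest probe, mRNA probes), -0.010 (replicate block) and -0.26 (scan day). C1ra at 7 days was at 0.086 (array weights) and 0.10 (without the CRC males of 7 days). Over omissions of single arrays at 2 days, the ranges were -0.25 to 0.12 for C1qa, -0.17 to 0.27 for C1qb, -0.19 to 0.13 for C1qc, -0.44 to 0.12 for C1ra, -0.73 to 0.48 for C2, -0.62 to 0.032 for C3, -0.31 to 0.31 for C4b and -0.23 to 0.076 for Cfb. They were -0.28 to 0.042 for Cfb and -0.75 to 0.016 for C5ar1 at 14 days, and -0.084 to 0.31 for Cfb and -0.16 to 0.28 for C1s1 at 21 days. Of the other E171 effects of single genes, 474 kept direction and side of the threshold, 13 lost the call and 16 gained it under alternatives that keep every array or leave out both CRC males of 7 days, and 249 kept them, 25 lost the call and 10 gained it when 1 array was left out. Members passed after adjustment in limma in 3 omissions. These were C5ar1 at 7 days without CRC female 1 (adjusted p = 0.0252) or CRC female 2 (0.0436), and the difference of its effect between sexes without CRC + E171 14 days male 1 (0.0499). Under the other alternatives the smallest adjusted p of an E171 effect was 0.0553 (C1qc at 14 days, array weights).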
